A study of Mus musculus with 20 samples.

Results

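Asparagine is encoded by the codons AAC and AAT, and the asparagine codon sites described here are the places in mouse coding sequences where a ribosome footprint was listed on either codon. They were selected by codon identity alone: the 2 asparagine rows of the 61 sense-codon rows in each table of codon enrichment, and every row with AAC or AAT in each table of codon occupancy. Over 10 footprint libraries this gave 21688 asparagine sites of 586153 sites in all, of which 13135 were AAC and 8553 were AAT. A footprint is a short piece of mRNA that was covered by a ribosome during digestion with RNase I, so the number of footprints on a codon reports how often ribosomes were found there. The tissue was the hippocampus of Qtrt1-/- mice and of wild-type mice, 1 footprint library and 1 library of input RNA per animal. The Qtrt1-/- animals were 3 females of 6 months and 21 days and 2 males, 1 of 6 months and 18 days and 1 of 5 months and 16 days. The wild-type animals were 3 females, 2 of 6 months and 21 days and 1 of 6 months and 22 days, and 2 males of the same ages as the Qtrt1-/- males. Tissue was lysed in a buffer with cycloheximide, which blocks elongation, and the labels describe neither the Qtrt1 allele nor the strain background.

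Qtrt1 and its partner Qtrt2 form the tRNA-guanine transglycosylase, with Qtrt1 as the catalytic partner. The enzyme replaces the guanine at the wobble base of the anticodon with queuine, so that the tRNA carries queuosine. The tRNAs that carry it are those for asparagine, aspartate, histidine and tyrosine, and each of them reads a C-ending and a T-ending codon. For asparagine, AAC pairs with an unmodified guanine at the wobble base by a standard pair and AAT by a wobble pair, so both codons are read by the same tRNA with or without queuosine.

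The sequences below are the stretches of coding sequence around the asparagine sites on which the single-site results turn, each with the 4 codons before and the 4 codons after the asparagine codon, which is in capitals. They were read from the GENCODE M21 transcripts (GRCm38) by the transcript identifier that the occupancy tables give. The first 4 are asparagine sites called with a larger share of their mRNA's footprints in Qtrt1-/- hippocampus, and Sparcl1 is the 1 asparagine site called with a smaller share.
Eif3c: ctctacgattacAACcctaacctggcc
Rab6b: aagactggctacAACgtgaagcagctc
Vps33a: ctgaccttgaacAACctggagaaggcc
Kcnf1: gtcaggtactacAACaaacaacgtgtc
Sparcl1: tctgagcaaggaAACcaagggcaggag

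At 5 further genes it was the codon just after an asparagine codon that held the larger share in Qtrt1-/- libraries. The asparagine codon is again in capitals.
Sorl1: ttcgtgtgtaagAACcgtcagcagtgt
Slc2a13: catctctccgacAACgacgcttctgac
Icam5: aatgttacaaagAACgatgacaagcgg
Snap25: gtgtgtccctgtAACaagcttaaatcc
Bcan: caagactttgtcAACgatcgataccgg

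Finally, 2 sites that held a large share of the footprints of their mRNA in libraries of both genotypes are shown, an AAC of the glutamate transporter gene Slc1a3 and an AAT of the tubulin gene Tubb2b.
Slc1a3: gatttgatcaggAACatgttccctccc
Tubb2b: tactgcatcgatAATgaggctctgtat
No 27-base stretch shown here occurs in a GENCODE M21 transcript of another gene.

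Qtrt1 itself was measured first, as a check of the labels. Its footprint level, in counts per 1e6 counts (CPM), was 0.601, 0.128 and 0.449 in Qtrt1-/- females and 1.34 and 0.501 in Qtrt1-/- males. Wild-type females had levels of 5.96, 4.77 and 4.08, and wild-type males of 6.06 and 8.59. Every Qtrt1-/- library lay below every wild-type library, by a log2 difference of -3.25 ± 0.32 (SE, mean of both sexes, edgeR adjusted p = 0.00102). In input RNA the difference was -1.47 ± 0.14 (edgeR adjusted p = 0.00356), with 1.80 to 2.85 CPM in Qtrt1-/- animals and 5.83 to 7.08 CPM in wild-type animals.

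The libraries differed in depth and in tissue make-up. Gene counts summed to between 5357812 and 15517982 per footprint library and between 9000662 and 13637370 per input library, and the occupancy tables held 1071976 to 3032432 footprints, with wild-type male 1 the deepest. Summed footprint CPM of the 2 markers of CA neurons, the pyramidal cells of the hippocampus, ran from 182 to 206 in Qtrt1-/- females, 59.6 to 186 in wild-type females, 281 to 304 in Qtrt1-/- males and 218 to 248 in wild-type males, and those of dentate granule cells were present in every library. Choroid plexus markers, which belong to a tissue beside the hippocampus, ranged from 2135 to 9001 CPM in Qtrt1-/- females, 130 to 5599 CPM in wild-type females, 8673 to 13623 CPM in Qtrt1-/- males and 11586 to 12102 CPM in wild-type males. The 5 striatal markers ranged from 52.3 to 154 CPM in Qtrt1-/- females, 109 to 306 CPM in wild-type females, 43.2 to 58.0 CPM in Qtrt1-/- males and 44.1 to 63.3 CPM in wild-type males. For 3 skeletal muscle genes that should be absent the sum ran from 8.78 to 20.5 CPM over the 10 libraries. Most of it was Acta1, at 7.82 to 19.4 CPM, with Myh4 at 0.334 to 2.01 CPM and Ckm at 0 to 0.669 CPM. The part of these differences in the results on asparagine codons was not tested, and in such bulk samples fewer cells of a type and less RNA per cell cannot be told apart.

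The asparagine sites took a larger part of all footprints in Qtrt1-/- females than in wild-type females. They held 4.15%, 4.24% and 4.18% of listed footprints in Qtrt1-/- females, against 3.71%, 3.73% and 3.69% in wild-type females. In males they held 3.77% and 4.11% in Qtrt1-/- animals, against 3.71% and 3.45% in wild-type animals. Values of both genotypes did not overlap in either sex, and no test was run on these shares. For scale, asparagine makes up 3.59% of the codons in the coding sequences of the 5307 mRNAs that were listed in all 10 libraries and matched GENCODE M21, with AAC at 2.04% and AAT at 1.55%.

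AAC was the larger contributor. It took 2.66%, 2.70% and 2.71% of footprints in Qtrt1-/- females and 2.65% and 2.82% in Qtrt1-/- males, against 2.43%, 2.47% and 2.42% in wild-type females and 2.53% and 2.42% in wild-type males. AAT took 1.49%, 1.54% and 1.47% in Qtrt1-/- females, against 1.29%, 1.26% and 1.27% in wild-type females. In males AAT took 1.12% and 1.29% in Qtrt1-/- animals, against 1.18% and 1.03% in wild-type animals, so that the male genotypes overlapped for AAT and not for AAC.

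Footprints were unevenly spread over the sites. The median listed asparagine site held 2 footprints in every library, while the fullest AAC site of a library held 1495 to 5827 and the fullest AAT site 813 to 2301. On the mRNAs listed in all 10 libraries, the 100 fullest AAC sites of a library held 37.7% to 47.8% of its AAC footprints, and the 100 fullest AAT sites held 40.8% to 51.6% of its AAT footprints. Between 31.3% and 58.8% of the 12639 AAC sites on those mRNAs, and between 25.5% and 55.6% of the 8239 AAT sites, had a footprint in a given library. A mean over sites is therefore weighted towards a small number of them, and a site without a footprint in one library is not shown to be empty.

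The enrichment tables give, for each codon, the authors' mean ratio of its occurrence at a codon position relative to the footprint, where 1 means no enrichment, from position -90 to position 90. They name no ribosomal site. In profiles rebuilt from site occupancy, position 1 corresponded to the codon just upstream of the one listed: over the 61 codons the rebuilt and the deposited profiles correlated best there in 10 of 10 libraries, with r between 0.982 and 0.992, and position 0, the listed codon itself, matched in 10 of 10 with r between 0.956 and 0.980. These are correlations across codons within a library, given as a description. The SD of log2 enrichment across codons in wild-type libraries was widest at position 1, at 0.873, and next at position 0, at 0.576, and those positions were compared.

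At position 1 AAC was more enriched in Qtrt1-/- hippocampus in both sexes. Its mean enrichment ratio was 1.33, 1.36 and 1.37 in Qtrt1-/- females and 1.28 and 1.35 in Qtrt1-/- males. It was 0.989, 1.01 and 1.05 in wild-type females and 1.06 and 0.985 in wild-type males. All 5 Qtrt1-/- libraries lay above all 5 wild-type libraries, and AAC ranked between 11 and 15 of the 61 codons in Qtrt1-/- libraries and between 22 and 27 in wild-type libraries.

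Group means of AAC at position 1 were 1.35 ± 0.0234 in Qtrt1-/- females and 1.02 ± 0.0325 in wild-type females (SD, n = 3 each), which is 33.0% higher. In males they were 1.31 ± 0.0532 in Qtrt1-/- animals and 1.02 ± 0.0547 in wild-type animals (SD, n = 2 each), which is 28.3% higher. The log2 difference was 0.41 ± 0.05 in females (SE, limma adjusted p = 9.1e-04), 0.36 ± 0.06 in males (limma adjusted p = 0.0120) and 0.39 ± 0.04 as the mean of both sexes (limma adjusted p = 2.49e-04). The sexes did not differ detectably in it, with a female minus male difference of 0.05 (limma adjusted p = 0.697). For background, 6.56% of the 61 codons were called at position 1 in the mean of both sexes, 9.84% in females and 3.28% in males. The p-values rest on a spread between animals that was estimated jointly over the groups of both sexes and moderated over the codons. The animals were few. The SE and p of the males therefore draw on the spread of the females and of other codons, and are not evidence from the males alone.

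AAT, the T-ending codon, was not called at position 1. Its ratio was 1.94, 1.97 and 1.95 in Qtrt1-/- females, against 1.76, 1.96 and 1.80 in wild-type females, and the groups overlapped. In males it was 1.76 and 1.91 in Qtrt1-/- animals, against 1.65 and 1.51 in wild-type animals, without overlap. The means were 6.30% higher in Qtrt1-/- females and 16.3% higher in Qtrt1-/- males, and the log2 difference was 0.09 ± 0.06 in females (SE, limma adjusted p = 0.258), 0.22 ± 0.07 in males (limma adjusted p = 0.261) and 0.15 ± 0.05 as the mean of both sexes (limma adjusted p = 0.0994). On the linear scale the mean of both sexes was a ratio difference of 0.187 and was called (limma adjusted p = 0.0355). After median-centring the codons of each library it was 0.079 on the log2 scale and not called (limma adjusted p = 0.31). The female difference was then -0.0093.

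**Figure D1:**
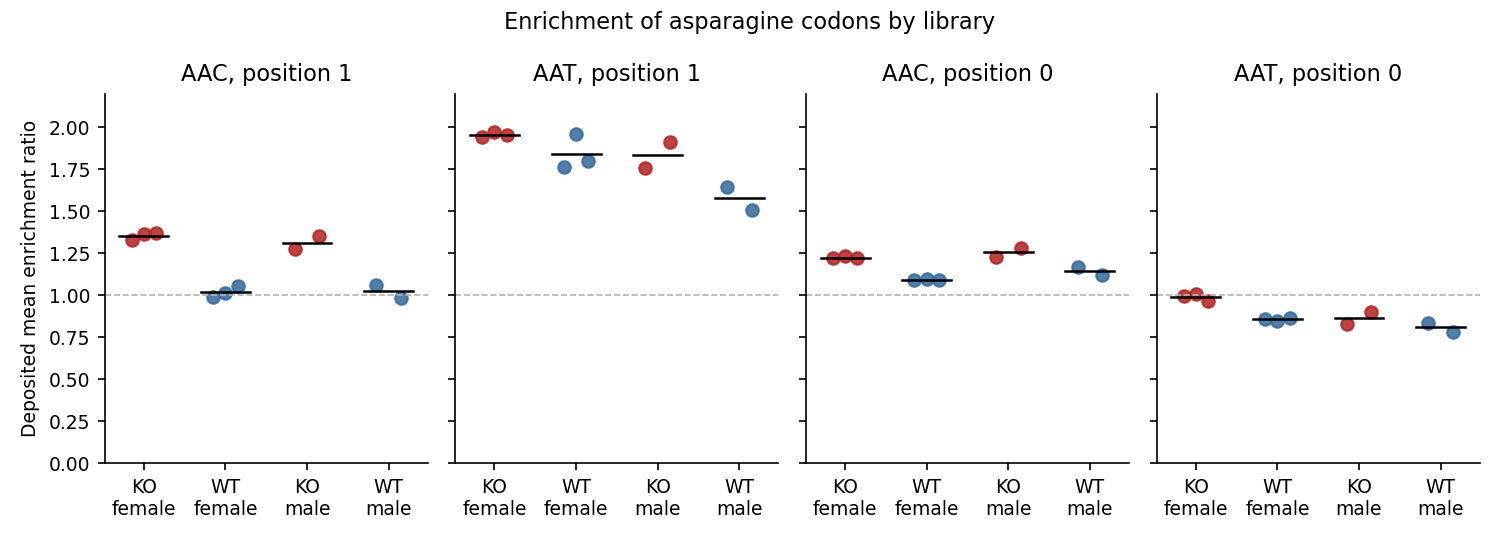
Deposited mean enrichment ratio of AAC and AAT at position 1 and position 0 in each of the 10 footprint libraries, by sex and genotype, where KO is Qtrt1-/- and WT is wild type. Points are libraries, solid lines are group means and the dashed line is a ratio of 1; AAC at position 1 lies between 1.28 and 1.37 in Qtrt1-/- libraries and between 0.985 and 1.06 in wild-type libraries.

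The codons differed in level as well as in response. AAT was the more enriched asparagine codon at position 1 in 10 of 10 libraries, by a mean log2 AAC minus AAT of -0.64 ± 0.16 (SD over libraries; exact two-sided sign-flip permutation p = 0.00195, the smallest that 10 libraries allow). At position 0 the order was the other way, with AAC higher in 10 of 10 libraries by 0.40 ± 0.10 (SD, exact sign-flip permutation p = 0.00195).

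The gap between the codons at position 1 was narrower in Qtrt1-/- hippocampus. Log2 AAC minus AAT was -0.55, -0.53 and -0.51 in Qtrt1-/- females, against -0.83, -0.95 and -0.77 in wild-type females. In males it was -0.46 and -0.50 in Qtrt1-/- animals, against -0.63 and -0.61 in wild-type animals, so neither sex overlapped. The mean shift of both sexes was 0.23 in the direction of AAC (exact two-sided permutation of genotype within sex, p = 0.0167, the smallest of 120 assignments; 0.0278 adjusted over 5 gaps). Taken alone the shift was 0.32 in females and 0.14 in males, where the smallest exact permutation p are 0.10 and 0.333. At position 0 the shift was -0.00064 (exact permutation p = 0.967), with values of the genotypes overlapping in both sexes.

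At position 0 both asparagine codons were higher in Qtrt1-/- hippocampus, by a smaller amount. AAC measured 1.22, 1.23 and 1.22 in Qtrt1-/- females and 1.23 and 1.28 in Qtrt1-/- males, against 1.09, 1.10 and 1.09 in wild-type females and 1.17 and 1.12 in wild-type males. AAT measured 0.996, 1.00 and 0.965 in Qtrt1-/- females, against 0.859, 0.846 and 0.866 in wild-type females. In males AAT was 0.826 and 0.902 in Qtrt1-/- animals, against 0.836 and 0.780 in wild-type animals, and there the genotypes overlapped. The percentage difference was 12.2% in females and 9.83% in males for AAC, and 15.3% in females and 6.97% in males for AAT.

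The log2 difference at position 0 was 0.15 ± 0.03 for AAC and 0.15 ± 0.04 for AAT as the mean of both sexes (SE, limma adjusted p = 0.0486 each), close to the threshold of 0.05. It was 0.17 for AAC and 0.21 for AAT in females (limma adjusted p = 0.0341 each) and 0.14 and 0.10 in males (limma adjusted p = 0.823 each). The background was 8.2% of the 61 codons called in the mean of both sexes, 11.5% in females and 0% in males. Leaving out any of 7 libraries for AAC, or any of 8 for AAT, ended the call in the mean of both sexes.

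Among the other codons read by queuosine tRNAs, the tyrosine codons moved the same way as AAC at position 1 and the aspartate codon GAC the other way. TAC rose by a log2 difference of 0.61 ± 0.06 (SE, limma adjusted p = 2.49e-04) and TAT by 0.25 ± 0.05 (limma adjusted p = 0.0168) in the mean of both sexes, and GAC fell by 0.21 ± 0.04 (limma adjusted p = 0.0168). These 3 and AAC were the codons called there. GAT was at -0.14 ± 0.05, and the histidine codons CAC at 0.19 ± 0.15 and CAT at 0.26 ± 0.09, none of them called. The lysine codons AAA and AAG, which share their first bases with the asparagine codons, were at 0.25 ± 0.20 and 0.17 ± 0.18 and were not called (limma adjusted p = 0.337 and 0.471).

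Set against those codons library by library, the AAC difference was smaller than that of TAC, by 0.22, and larger than that of GAC, by 0.59 (exact permutation p = 0.0167 each, 0.0278 adjusted over 5 gaps). Against CAC it was larger by 0.19, with an exact permutation p of 0.333. These comparisons with other codons were added after the values of the codons were known.

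Over all 181 positions the 2 asparagine codons gave 362 of the 11041 rows of codon and position. In 1 fit of all rows, 6 were called in the mean of both sexes, 0.0543% of all rows, and 2 of them were asparagine rows: AAC at position 1 (limma adjusted p = 0.00148) and AAC at position 0 (limma adjusted p = 0.0255). AAT at positions -3 to 1 differed by 0.11 to 0.15 and was not called. In females 8.57% of all rows were called, and 31 of the 362 asparagine rows. Called rows that were higher in Qtrt1-/- females made up 3.29% of all rows, 363 of 11041, and were 22 of the 362 asparagine rows. Many called asparagine rows lay far from the listed codon, in both directions of change. Some of these differed as much as position 0 did in females, where AAC was at 0.17 and AAT at 0.21. AAC was at 0.21 at position 82 and 0.19 at position -77, and AAT at 0.19 at position 30. The position 0 difference in females was thus no larger than some far outside it. In males 0% were called.

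**Figure D2:**
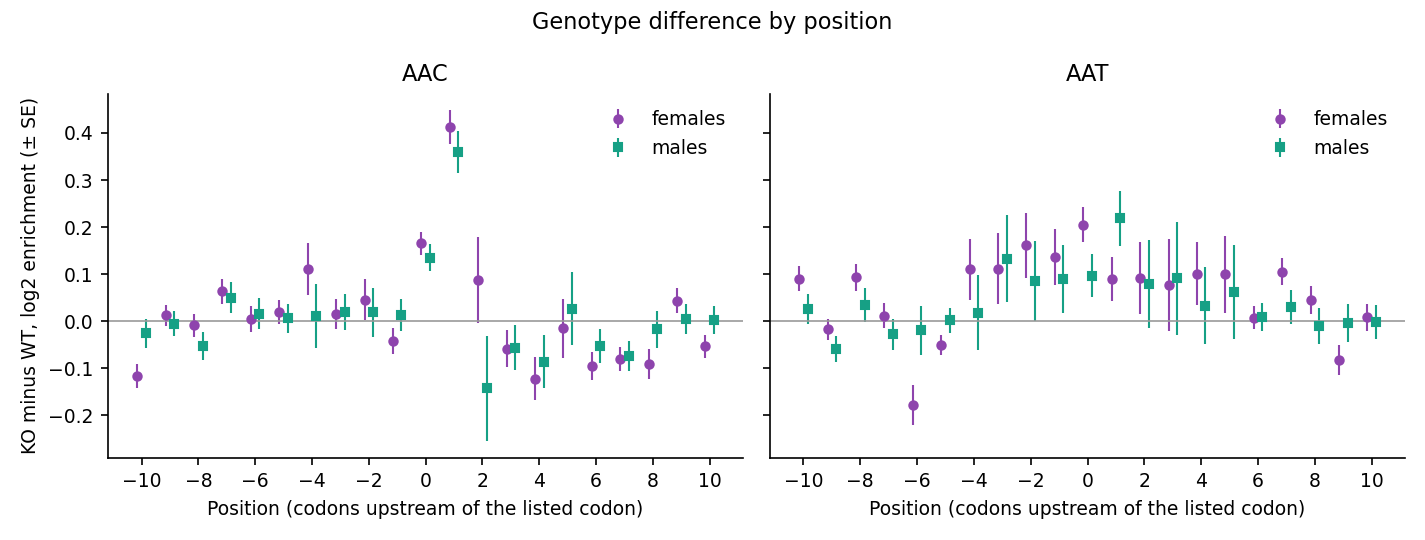
Difference in log2 mean enrichment, Qtrt1-/- minus wild type, of AAC and AAT by position in codons upstream of the listed codon, within 10 codons, with females as circles and males as squares and bars of 1 SE. The AAC difference stands out at position 1, at 0.41 in females and 0.36 in males.

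The occupancy tables give the footprints on each single codon and the ratio of that count to the mean of the mRNA. On the sites fixed across libraries, the mean relative occupancy of the codon 1 downstream of AAC, which corresponds to position 1, was 6.11, 6.18 and 6.12 in Qtrt1-/- females and 5.78 and 6.06 in Qtrt1-/- males. It was 4.90, 5.03 and 4.79 in wild-type females and 5.02 and 4.76 in wild-type males. All Qtrt1-/- libraries were again above all wild-type libraries, by a log2 difference of 0.30 ± 0.04 (SE, limma adjusted p = 0.00129), with 6.56% of the 61 codons called. The difference was 0.32 in females (limma adjusted p = 0.0042) and 0.27 in males (limma adjusted p = 0.0508). When occupancy was capped at 20 times the mean of the mRNA it was 0.21 and not called (limma adjusted p = 0.467).

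Downstream of AAT the occupancy was 8.32, 8.47 and 8.51 in Qtrt1-/- females, against 7.87, 8.52 and 7.23 in wild-type females, and 7.89 and 8.30 in Qtrt1-/- males, against 7.19 and 6.77 in wild-type males. The log2 difference was 0.16 ± 0.05 (limma adjusted p = 0.0887). At the listed asparagine codon, the position 0 of the other tables, neither codon was called, with 0.15 for each (limma adjusted p = 0.0882 each), and 0% of the 61 codons passed limma there, of which 14 had an unadjusted p under 0.05. With occupancy capped at 20 times the mean of the mRNA, AAC at the listed codon was at 0.053 and the codon downstream of AAT at 0.082, neither called (limma adjusted p = 0.934 and 0.674). The AAC levels there were 5.68, 5.08 and 5.47 in Qtrt1-/- females, against 4.69, 4.97 and 4.98 in wild-type females, and 5.26 and 5.70 in Qtrt1-/- males, against 5.12 and 4.69 in wild-type males. The AAT levels were 5.26, 5.54 and 5.06 in Qtrt1-/- females, against 4.78, 4.77 and 4.56 in wild-type females, and 4.91 and 4.90 in Qtrt1-/- males, against 4.79 and 4.19 in wild-type males. The genotypes did not overlap at either codon, within either sex.

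Single sites were then tested for the share of their mRNA's footprints that lay on them, so that a change in the level of the mRNA does not enter. A site was tested when it held at least 10 counts in at least 2 libraries, which 42519 sites did. Of the 21688 asparagine sites 1653 were tested, 1073 AAC and 580 AAT, on 841 mRNAs, and 328 of them held at least 10 counts in every library. Because the remainder passed the filter through some libraries only, the counts below describe these sites and not asparagine sites at large.

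In the mean of both sexes 14 asparagine sites were called, 10 AAC and 4 AAT, of which 13 were higher and 1 lower in Qtrt1-/- hippocampus (edgeR adjusted p under 0.05). Over all tested sites 1.09% were called, so the share of asparagine sites called, 0.847%, was not above the background. By direction, 13 of 1653 asparagine sites were higher, against 264 of all 42519 (0.621%). Lower were 1 of 1653, against 198 of all 42519 (0.466%). No test was run on this split. The median log2 difference of the tested asparagine sites was 0.19, against 0.02 for all tested sites, and 62.9% of them were above 0, against 51.6%. In females 87 asparagine sites were higher and 24 lower, where 6.29% of all sites were called and 3.39% were higher. In males 0% of sites were called by edgeR, with an unadjusted p under 0.05 at 88 of the 1653 asparagine sites and at 1829 of all 42519. The male median was 0.11 for asparagine sites against -0.01 for all sites.

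The codon just after AAC was tested in the same fit. There 35 of 1118 tested sites were higher and 0 lower in the mean of both sexes, which is 3.13% against the 0.621% of all sites, with a median log2 difference of 0.40 and 77.5% above 0. Downstream of AAT 12 of 984 were higher and 1 lower, with a median of 0.19 and 65.1% above 0. For comparison, 50 of 659 sites downstream of TAC were higher and 0 lower, and 3 of 2416 downstream of GAC were higher and 43 lower. DESeq2 also called 28 of the 35 sites downstream of AAC, and 14 of them were called with the replicate number as a block. The male medians were 0.35 downstream of AAC and 0.19 downstream of AAT.

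**Figure D3:**
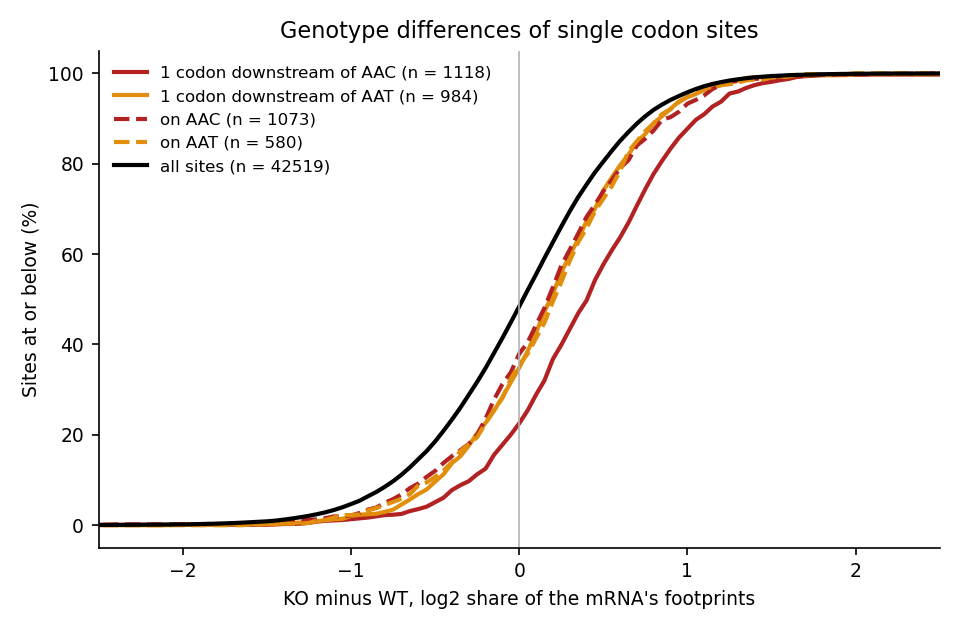
Cumulative share of tested sites by log2 difference, Qtrt1-/- minus wild type, for sites on and 1 codon downstream of asparagine codons and for all sites. The curve for sites downstream of AAC lies furthest to the right of the curves for asparagine codons, with a median of 0.40 against 0.02 for all sites.

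The called asparagine sites lie in genes of varied function. Eif3c encodes a subunit of the translation initiation factor eIF3. Its AAC at codon 383, counted from 0 at the start codon (chr7:126557708-126557710, minus strand, exon 11 of 21), held 3.49%, 3.28% and 2.76% of the mRNA's footprints in Qtrt1-/- females and 3.16% and 5.16% in Qtrt1-/- males. The share was 0.794%, 0.437% and 1.23% in wild-type females and 1.60% and 2.14% in wild-type males. No wild-type library reached a Qtrt1-/- library, and the log2 difference was 1.54 ± 0.27 (SE, edgeR adjusted p = 0.0183), from 41 to 55 footprints per Qtrt1-/- library and 6 to 48 per wild-type library.

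Rab6b encodes a Rab GTPase of Golgi transport that is abundant in neurons. Its AAC at codon 161 (chr9:103163892-103163894, plus strand, exon 6 of 8) held 3.02%, 4.68% and 4.06% in Qtrt1-/- females and 3.80% and 4.55% in Qtrt1-/- males, against 1.39%, 1.77% and 1.93% in wild-type females and 2.37% and 1.39% in wild-type males. The genotypes did not overlap, with a log2 difference of 1.17 ± 0.22 (edgeR adjusted p = 0.0183). With TMM scaling in place of the mRNA's footprints the site was not called (edgeR adjusted p = 0.0534). Vps33a encodes a subunit of the HOPS tethering complex of late endosomes and lysosomes. Its AAC at codon 447 (chr5:123533960-123533962, minus strand, exon 11 of 13) held 7.99%, 6.34% and 6.24% in Qtrt1-/- females and 7.31% and 9.51% in Qtrt1-/- males, against 1.02%, 1.13% and 2.18% in wild-type females and 5.46% and 3.10% in wild-type males. This was a log2 difference of 1.54 ± 0.29 without overlap (edgeR adjusted p = 0.0187), on 27 to 39 footprints per Qtrt1-/- library and 4 to 49 per wild-type library.

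Kcnf1 encodes a modulatory subunit of voltage-gated potassium channels. Its AAC at codon 425 (chr12:17174941-17174943, minus strand, its 1 exon) held 7.54%, 8.72% and 9.03% in Qtrt1-/- females, against 4.25%, 3.47% and 3.37% in wild-type females. In males it held 4.44% and 5.01% in Qtrt1-/- animals, against 2.89% and 2.61% in wild-type animals. All Qtrt1-/- values were above all wild-type values, by 0.98 ± 0.21 on the log2 scale (edgeR adjusted p = 0.0305). The Kcnf1 call was lost with the replicate number as a block (edgeR adjusted p = 0.0524). It was also lost with TMM scaling in place of the mRNA's footprints (edgeR adjusted p = 0.103).

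Sparcl1, which encodes a matrix protein secreted by astrocytes, held the only asparagine site called lower. Its AAC at codon 264 (chr5:104092762-104092764, minus strand, exon 4 of 11) took 0.288%, 0.287% and 0.254% of the mRNA's footprints in Qtrt1-/- females and 0.287% and 0.136% in Qtrt1-/- males, against 0.631%, 0.733% and 0.444% in wild-type females and 0.517% and 0.383% in wild-type males. The genotypes did not overlap, at a log2 difference of -1.11 ± 0.23 (edgeR adjusted p = 0.0285). A further 8 called sites were all higher, by 1.03 to 2.39 on the log2 scale: the AAC sites of Pcdh17, Soga3, Pnmal1 and Klhdc2 and the AAT sites of Nefl, Fan1, Hnrnpul2 and Slitrk1. DESeq2 also called 10 of the 14 called asparagine sites and gave no adjusted p for those of Pcdh17, Fan1, Soga3 and Pnmal1. No called asparagine site kept its call in more than 5 of the 10 fits that left out 1 library, and all 14 lost it without Qtrt1-/- female 1, Qtrt1-/- female 2, wild-type female 1, wild-type female 2 or Qtrt1-/- male 2, where 0 asparagine sites were called by edgeR.

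In the sequences printed above the codon just before the AAC was TAC in Eif3c, Rab6b and Kcnf1 and AAC in Vps33a, so that at these 4 sites the codon at position 1 was itself TAC or AAC. Of the 14 called asparagine sites 3 were preceded by TAC and 2 by AAC. The split by preceding codon was made after these sites had been seen and is a description without a test. AAC sites preceded by TAC or AAC, 648 in number, had a log2 difference in mean relative occupancy of 0.42, and the 11960 preceded by another codon had 0.12.

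In mean occupancy the split was wider for AAT. The 391 AAT sites preceded by TAC or AAC had a mean relative occupancy of 7.34, 7.59 and 5.15 in Qtrt1-/- females and 5.90 and 6.15 in Qtrt1-/- males, against 3.83, 3.41 and 2.31 in wild-type females and 3.66 and 2.46 in wild-type males, a log2 difference of 1.04 without overlap. The 7826 AAT sites preceded by another codon differed by 0.11. By the median of single tested sites the split was not wider for AAT. The medians were 0.66 for 57 AAC sites preceded by TAC or AAC and 0.16 for the 1012 others. For AAT they were 0.68 for 23 sites and 0.20 for the 557 others. The 5 called sites preceded by TAC or AAC were all AAC sites, of 57 tested, and 0 of the 23 AAT sites were called. Among all tested sites preceded by TAC or AAC 85 of 1777 were called, and 377 of the 40697 others. With so few AAT sites, their 0 calls do not set them apart from the AAC sites. The same split over all 42519 tested sites, less those without a matched preceding codon, gave a median log2 difference of 0.46 for the 1777 sites preceded by TAC or AAC and 0.0043 for the 40697 others. Those 1777 are the sites downstream of AAC and of TAC described above, so their median repeats that result and is not a further one.

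The sites 1 codon downstream of AAC included some heavily covered ones, named by the same rule as the asparagine sites after their values had been seen. Snap25 encodes a SNARE protein of synaptic vesicle fusion, and its codon AAG at 93 follows the AAC at codon 92 (chr2:136770170-136770172, plus strand, exon 5 of 8). That codon held 17.0%, 13.3% and 14.2% of the mRNA's footprints in Qtrt1-/- females and 14.9% and 15.5% in Qtrt1-/- males, against 6.12%, 6.43% and 6.02% in wild-type females and 12.1% and 10.6% in wild-type males. It was the best covered of these sites, with 1296 to 2119 footprints in Qtrt1-/- libraries and 392 to 2332 in wild-type libraries, and the genotypes did not overlap (log2 difference 0.84 ± 0.16, edgeR adjusted p = 0.0183).

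Sorl1 encodes a sorting receptor for endosomal cargo. Its codon after the AAC at 1284 (chr9:42004077-42004079, minus strand, exon 28 of 48) held 1.72%, 1.34% and 1.22% in Qtrt1-/- females and 1.16% and 2.01% in Qtrt1-/- males, against 0.336%, 0.395% and 0.386% in wild-type females and 0.608% and 0.688% in wild-type males. The log2 difference of 1.62 ± 0.22 without overlap (edgeR adjusted p = 0.00503) kept its call in 9 of the 10 fits that left out 1 library.

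Icam5 encodes a dendritic adhesion protein of forebrain neurons. Its codon after the AAC at 374 (chr9:21035205-21035207, plus strand, exon 5 of 11) held 4.31%, 3.80% and 2.26% in Qtrt1-/- females and 1.18% and 1.75% in Qtrt1-/- males, against 0.744%, 1.04% and 0.790% in wild-type females and 0.927% and 0.356% in wild-type males. The log2 difference was 1.51 ± 0.28 without overlap (edgeR adjusted p = 0.0183). Bcan encodes brevican, a proteoglycan of the brain matrix. Its codon after the AAC at 711 (chr3:87990141-87990143, minus strand, exon 10 of 14) held 9.21%, 6.88% and 6.16% in Qtrt1-/- females and 4.22% and 5.53% in Qtrt1-/- males, against 1.39%, 2.06% and 1.82% in wild-type females and 3.39% and 3.33% in wild-type males, a log2 difference of 1.30 ± 0.25 without overlap (edgeR adjusted p = 0.0183).

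Slc2a13 encodes a myo-inositol transporter. Its codon after the AAC at 630 (chr15:91272175-91272177, minus strand, exon 10 of 10) held 6.35%, 4.63% and 5.61% in Qtrt1-/- females and 6.97% and 9.86% in Qtrt1-/- males, against 2.70%, 1.81% and 2.49% in wild-type females and 2.84% and 4.85% in wild-type males. The log2 difference was 1.19 ± 0.21 (edgeR adjusted p = 0.0183), with wild-type male 2 just above Qtrt1-/- female 2. This call was kept in 6 of the 10 fits that left out 1 library, and those of Snap25, Icam5 and Bcan in 5 each. The 1 site called lower, after the AAT at codon 185 of Creg2, held only 1 to 7 footprints in Qtrt1-/- libraries and 3 to 27 in wild-type libraries, and the genotypes overlapped (log2 difference -2.07 ± 0.51, edgeR adjusted p = 0.0489).

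**Figure D4:**
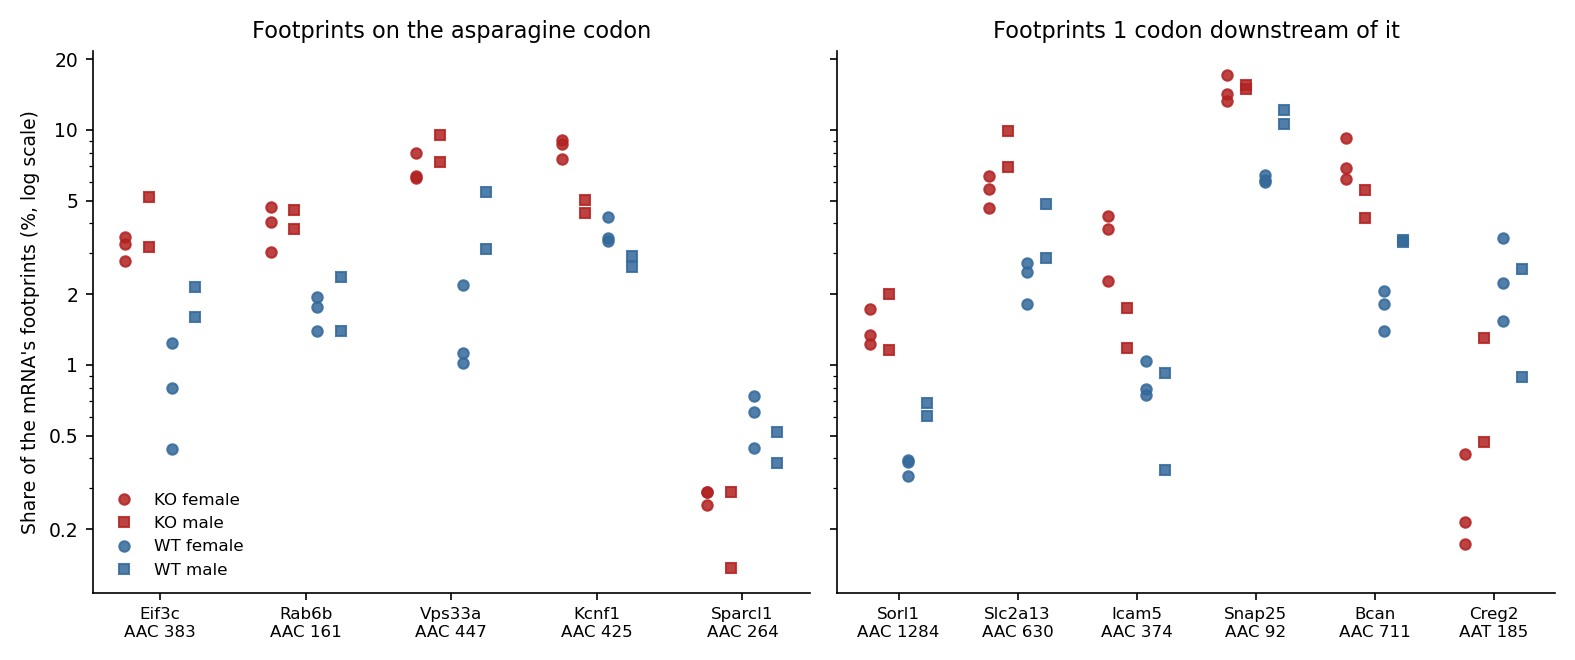
Share of an mRNA's footprints, in percent on a log axis, at the named asparagine sites and at the codon after an asparagine codon, with 1 point per library, red for Qtrt1-/- (KO), blue for wild type (WT), circles for females and squares for males. For Snap25 the Qtrt1-/- libraries lie between 13.3% and 17.0% and the wild-type libraries between 6.02% and 12.1%.

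The asparagine sites with the highest occupancy in wild-type libraries were chosen on wild-type values and are described without a test. The AAC at codon 175 of Slc1a3, an astrocyte glutamate transporter gene, held 83.4%, 76.3% and 71.5% of the mRNA's listed footprints in Qtrt1-/- females and 69.5% and 76.4% in Qtrt1-/- males, against 57.3%, 51.9% and 68.9% in wild-type females and 77.5% and 78.1% in wild-type males. The whole of this listed mRNA held only 135 to 476 footprints per library, so these large shares rest on few footprints. The occupancy of the AAC was 389 ± 32.7 times the mean of the mRNA in Qtrt1-/- libraries and 338 ± 59.5 times in wild-type libraries (SD, n = 5 each, sexes together), with overlap. Gabrb2, a GABA-A receptor subunit gene, had 206 ± 35.8 in Qtrt1-/- libraries and 205 ± 28.9 in wild-type libraries at its AAC at codon 357. Aak1, a kinase gene of clathrin-coated vesicles, had 379 ± 155 in Qtrt1-/- libraries and 251 ± 79.1 in wild-type libraries at codon 538.

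Ap1b1, a gene of the AP-1 adaptor complex, had 179 ± 59.0 in Qtrt1-/- libraries and 187 ± 11.4 in wild-type libraries at its AAC at codon 172. At the AAT of codon 203 of Tubb2b the values were 214 ± 35.3 in Qtrt1-/- libraries and 190 ± 48.3 in wild-type libraries; beta-tubulin genes are near-identical in stretches, and the assignment of such reads is not described in the labels. The other 4 mRNAs were also thinly covered. Their listed footprints per library were 69 to 167 for Aak1 and 80 to 204 for Gabrb2. They were 140 to 326 for Ap1b1 and 93 to 256 for Tubb2b. Over both sexes the genotypes overlapped at all 5 of these sites. Within females they did not overlap at Slc1a3, with 369 to 431 in Qtrt1-/- animals and 259 to 354 in wild-type animals, or at Aak1, with 348 to 541 in Qtrt1-/- animals and 214 to 343 in wild-type animals. Within males they did not overlap at Ap1b1, which was lower in Qtrt1-/- animals, with 132 to 150, than in wild-type animals, with 172 to 203.

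Asparagine sites were also split by sequence context. The sequon N-X-S or T with X not proline, the motif at which asparagine can be N-glycosylated, was among the contexts, and at position 1 occupancy was taken at the codon after the asparagine. For AAC inside a sequon, 1809 sites, the mean relative occupancy at position 1 was 7.29, 7.29 and 7.39 in Qtrt1-/- females and 7.20 and 8.27 in Qtrt1-/- males, against 4.93, 5.69 and 4.80 in wild-type females and 5.32 and 4.81 in wild-type males. Outside the sequon, 10634 sites, it was 5.90, 5.99 and 5.90 in Qtrt1-/- females and 5.53 and 5.68 in Qtrt1-/- males, against 4.89, 4.92 and 4.79 in wild-type females and 4.97 and 4.75 in wild-type males. The log2 difference was 0.56 inside and 0.25 outside (exact permutation p = 0.0167 each, the smallest of 120 assignments; 0.0424 adjusted over 28 contexts).

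The difference of those differences, 0.32, did not pass adjustment (exact permutation p = 0.0167; 0.15 adjusted over the 12 such gaps, which were added after the contexts had been compared). AAC followed by another asparagine codon, 586 sites, differed by 0.67 and AAC not followed by one, 11857 sites, by 0.28 (exact permutation p = 0.0167 each, 0.0424 adjusted), with a gap of 0.39 (exact permutation p = 0.0333, 0.15 adjusted). By codon position in the mRNA, AAC differed by 0.30 from codon 15 to 100, 0.34 beyond codon 100 and up to 300 and 0.28 beyond 300, the first of which did not pass (0.0718 adjusted). AAT inside a sequon, 1332 sites, differed by 0.25 at position 1 (0.0424 adjusted) and outside it, 8003 sites, by 0.14 (0.0933 adjusted). At position 0, the asparagine codon itself, the log2 difference of AAT was -0.11 inside, 1160 sites (exact permutation p = 0.317), with -0.08 in females and -0.14 in males, and 0.20 outside, 7057 sites (0.0424 adjusted). The gap of -0.31 between them did not pass adjustment (exact permutation p = 0.05, 0.15 adjusted). AAC at position 0 differed by 0.19 inside the sequon (0.197 adjusted) and by 0.12 outside it (0.0424 adjusted). Of the 28 contexts over both positions 11 passed, and 0 passed without wild-type female 3, Qtrt1-/- male 2 or wild-type male 2. All 11 stood at the smallest exact permutation p, 0.0167. Contexts at that p share 1 adjusted value and pass or fail together. The contexts also overlap in sites. The 11 are therefore not separate results, and a fall to 0 does not show that each difference was lost.

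**Figure D5:**
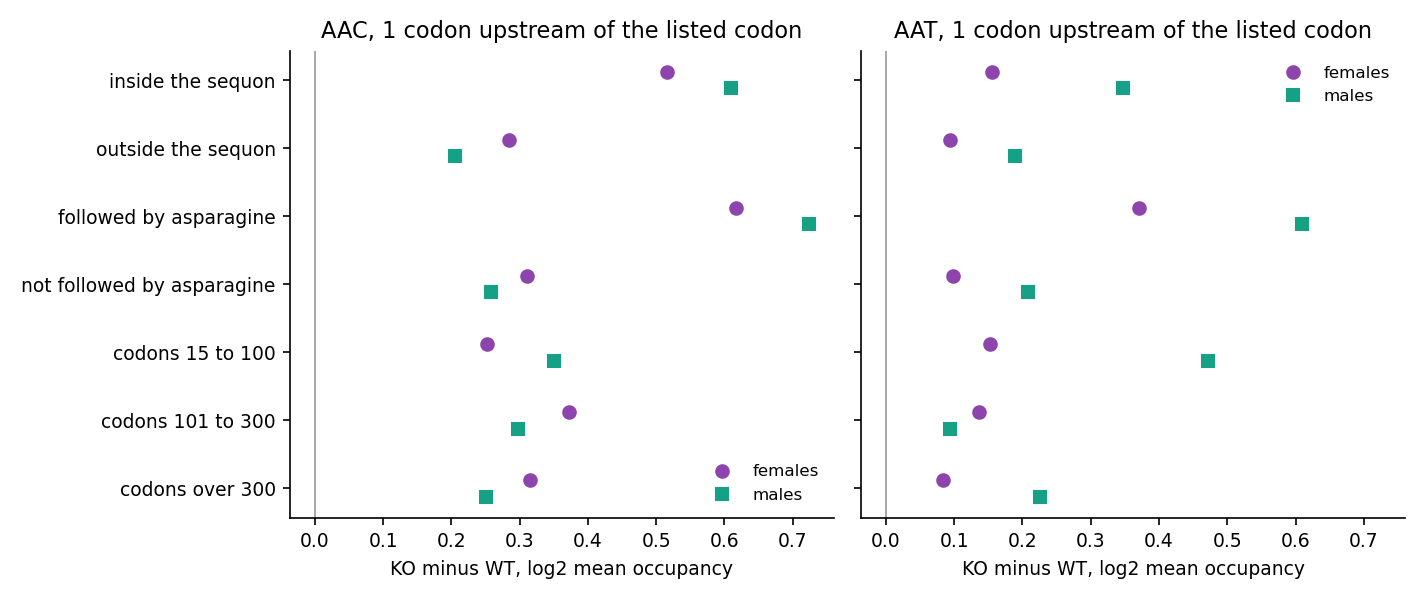
Log2 difference in mean relative occupancy at position 1, Qtrt1-/- (KO) minus wild type (WT), for AAC and AAT sites in each of 7 sequence contexts, with females as circles and males as squares and no error bars. For AAC the difference inside the sequon is 0.52 in females and 0.61 in males, and outside it 0.28 in females and 0.21 in males.

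The genes that make, charge and carry asparagine were compared last, from a list of 14 that also holds Qtrt1 and Qtrt2. Of the 12 tested only Qtrt1 was called in footprints or in input RNA, where 0.00761% of tested genes were called in footprints and 0.734% in input RNA. Nars, the cytosolic asparaginyl-tRNA synthetase, was at a log2 footprint difference of 0.07 (edgeR adjusted p = 0.646) and Nars2, the mitochondrial enzyme, at 0.22 (edgeR adjusted p = 0.308). Asns, asparagine synthetase, was at -0.20 (edgeR adjusted p = 0.162). Asnsd1, which contains an asparagine synthetase domain, had footprint levels in CPM of 3.49, 2.95 and 3.03 in Qtrt1-/- females and 2.28 and 2.34 in Qtrt1-/- males, against 1.34, 1.71 and 1.50 in wild-type females and 1.48 and 0.747 in wild-type males. Its libraries did not overlap by genotype, and the log2 difference of 0.96 ± 0.26 was not called (edgeR adjusted p = 0.088). These levels rest on only 14 to 29 footprints per Qtrt1-/- library and 4 to 23 per wild-type library. Slc6a14 and Slc6a19 were too low to test.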

How the data were processed

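Ribosome footprints and input RNA of 10 hippocampi were deposited as a table of raw counts per gene and, per footprint library, tables of codon enrichment and of codon occupancy. The counts per gene are whole numbers without normalization, as deposited. Per the file headers, the occupancy tables hold coverage as a count of footprints per codon, the single-codon occupancy as a ratio to the mean of the mRNA, and the covered part of the coding sequence as a percent; the lowest codon position listed is 15. The enrichment deposited by the authors is a mean ratio per codon and position, called unbiased, and no label or header describes the correction behind that word. The submitters' processing notes name Bowtie 1.2.2 and 1.0.0, SAMtools 0.1.19, cutadapt 1.8.1 and Trimmomatic 0.39. Neither the genome build nor any use of molecular identifiers is given in the sources. Coordinates are those of GENCODE M21 (GRCm38) for the listed transcript, kept where its coding sequence carried every listed codon.

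Enrichment and mean occupancy were tested on the log2 scale with limma 3.58.1 over 61 codons. Single sites were tested with edgeR 4.0.16 by the quasi-likelihood test with the mRNA's footprints as offset, and genes with TMM and filterByExpr, in R 4.3.3; DESeq2 1.42.0 was an alternative. All fits used 4 group means, and contrasts were Qtrt1-/- minus wild type in females, in males, as the mean of both sexes, and between sexes, with Benjamini-Hochberg adjustment over all features and a threshold of 0.05. Mean occupancy covers sites listed in any library on the 5348 mRNAs listed in all 10, with 0 where a site is not listed. In the limma fits the groups of both sexes shared the estimate of spread, so the SE and p of a single sex do not come from that sex alone. Exact permutations were two-sided. Scripts were tested on simulated data. The members and lists were chosen with earlier results of these data known. Named sites were the 5 with the lowest p per direction among called asparagine sites, 1 per mRNA, and the 5 with the highest wild-type occupancy among those with 10 counts in every library, and 1 site so named is not reported here; the rule was applied to sites after an asparagine codon once their values were known. The alternatives were another scaling, cap, filter or tool, the replicate number as a block, and leaving out each library.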

Additional observations from a re-analysis of the deposited data

How the results depend on the processing

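In the mean of both sexes the higher enrichment of AAC at position 1 kept its direction and call under every setting tried, with log2 differences of 0.36 to 0.41 when 1 library was left out, as did AAC occupancy downstream (0.28 to 0.32) except with occupancy capped at 20 (0.21), the gap at position 1 (0.21 to 0.25), the levels of AAC against AAT and Qtrt1. Median-centring the codons of each library lowered AAC at position 1 to 0.31, below its range with 1 library left out, and still called (limma adjusted p = 0.00316). AAT at position 1 was called on the linear scale (0.187) and without Qtrt1-/- male 1 (0.18) or wild-type male 1 (0.19), within 0.12 to 0.19 over the libraries. After median-centring AAT was at 0.079 in the mean of both sexes, not called (limma adjusted p = 0.31), and at -0.0093 in females.

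At position 0 the calls were lost after median-centring (0.16 for AAC and 0.16 for AAT), and AAT also when positions within 10 (0.15) or all positions (0.15, added after seeing the data) entered 1 fit. Leaving out 1 library gave 0.14 to 0.17 for AAC, called only without wild-type female 3, Qtrt1-/- male 1 or wild-type male 1, and 0.12 to 0.18 for AAT, called only without either of those males. In occupancy at the listed codon both codons were called on mRNAs with 100 footprints (0.15 for AAC, 0.17 for AAT) and without wild-type male 1 (0.19 and 0.20), in ranges of 0.12 to 0.19 and 0.10 to 0.20; AAT downstream was called on those mRNAs (0.20) and without wild-type male 1 (0.18), in a range of 0.13 to 0.19. The cap at 20 gave, without calls, 0.053 for AAC and 0.11 for AAT at the listed codon and 0.082 for AAT downstream. The gap at position 0 was 0.029 on the linear scale and -0.017 to 0.016 with 1 library left out.

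The count of 14 asparagine sites was 25 with a filter of 30 counts and 28 with DESeq2, and 0 to 60 with 1 library left out: 6 without wild-type female 3, 27 without Qtrt1-/- male 1 and 60 without wild-type male 1. Over all sites the 462 calls became 720 with DESeq2, 558 with TMM and no offset and 0 to 1556 with 1 library left out. On mRNAs with 100 footprints 24 contexts passed, and 0 to 16 with 1 library left out. From the gene list 1 to 2 were called in footprints with 1 library left out, Asnsd1 joining without wild-type male 1.

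Differences that changed sign were not called: Gabrb2 with TMM (-0.12) and AAT at position 0 inside the sequon on mRNAs with 100 footprints (0.14), and, over fits without 1 library, Tubb2b site 203 (-0.021 to 0.26), Qtrt2 (-0.11 to 0.26), Slc38a2 (-0.046 to 0.19) and Slc38a3 (-0.24 to 0.036) in footprints, and Asnsd1 (-0.014 to 0.22), Slc38a5 (-0.36 to 0.39) and Slc38a3 (-0.24 to 0.065) in input RNA. The single library behind the change was wild-type male 1 for Tubb2b, wild-type male 2 for Slc38a3 and Qtrt1-/- male 2 for the others. The causes were not tested. The main fits did not pair animals by replicate number, although same-numbered males were of the same age. Deviations of same-numbered libraries correlated at -0.552, 0.0862 and -0.579 in females and -0.375 in males, which cannot settle whether animals were paired. With the replicate block the difference of AAC at position 1 was 0.39 and called, and AAC downstream was 0.30 and called. At position 0 the block gave 0.15 for AAC and 0.15 for AAT, neither called. Under the block 5 asparagine sites and 152 sites in all were called. Depth limits single sites, since the median listed asparagine site held 2 footprints.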
